A study of Mus musculus with 6 samples.

Results

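The genes examined encode 9 components of PRC1.6, the form of Polycomb repressive complex 1 that assembles around PCGF6: *Pcgf6*, *L3mbtl2*, *Mga*, *Max*, *E2f6*, *Tfdp1*, *Wdr5*, *Hdac1* and *Hdac2*. They were chosen by name as subunits and DNA-binding partners of the complex, and all 9 were found among the 19338 gene symbols of the deposited table, each with 1 RefSeq entry. Their levels were read from nuclear RNA-seq of mouse embryonic stem (ES) cells with the genotype Rybp fl/fl;Yaf2-/-, a line derived from a single colony in which *Yaf2* had been removed by CRISPR/Cas9, *Rybp* is flanked by loxP sites, and a tamoxifen-inducible Cre recombinase is expressed. All 6 libraries therefore lack *Yaf2* exons 1 and 2 and carry the Cre. Of these libraries, 3 biological replicates were untreated (UNT) and 3 came from cells given 800 nM 4-hydroxytamoxifen for 96 hr (OHT), which deletes *Rybp*. The value available for each gene is the base mean, the read count divided by the size factor of its library and averaged by the authors over all 6 libraries, UNT and OHT together. It is a level of nuclear RNA in this cell line and not a measure of the response to OHT, and no comparison of OHT with UNT was made here.

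PRC1 complexes are E3 ubiquitin ligases for histone H2A in which RING1A or RING1B pairs with 1 of the PCGF proteins, and the PCGF protein fixes which other subunits join. PRC1.6 carries sequence-specific DNA-binding proteins. MGA pairs with MAX to bind E-box sequences, and E2F6 pairs with a DP protein such as TFDP1 to bind E2F sites. In ES cells the complex is known for occupying and silencing promoters of genes used in germ cells and meiosis.

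Nuclear RNA of all 9 PRC1.6 genes was detected above the middle of the table. The median base mean was 1990.1 normalized reads over the 9 genes, against 306.7 over the 19198 entries with a base mean above 0. All 9 genes lay above that median, and 8 of 9 lay above the upper quartile, which 25% of the entries exceed by construction. The exception was *E2f6*, at percentile 59.8. *Mga* had the highest base mean, 13689, at percentile 99.2, and *Tfdp1* followed with 6481, at percentile 96.4. The other 6 genes lay close together, from 1423 for *Pcgf6* (percentile 77.3) to 2550.5 for *Wdr5* (percentile 86.7).

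**Figure D1:**
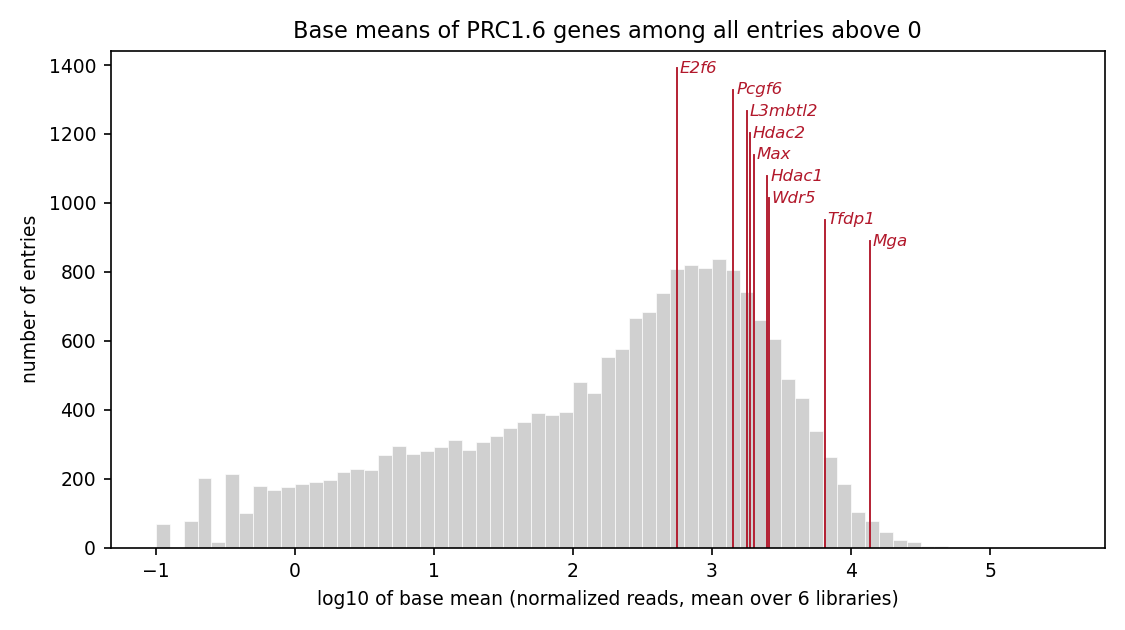
Number of entries (vertical axis) by log10 of the base mean in normalized reads (horizontal axis), for the 19198 entries above 0; red lines mark the 9 PRC1.6 genes. *E2f6* lies nearest the middle at 557, *Mga* lies far to the right at 13689, and the remainder sit on the falling side of the distribution.

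The depth of the libraries could be read from the lowest base means. An entry with 1 read in 1 library has a base mean of 1 divided by 6 times that library's size factor, and 6 such steps were found, from which all 721 base means between 0 and 0.502 followed as whole numbers of reads within 1e-07. The size factors ran from 0.664 to 1.48, a 2.23-fold range, and which library has which factor cannot be read from the steps. Base means worth 2 reads in 1 library were 2.28 times as frequent as those worth 1 read (392 against 172 entries). Total reads per library are not known from these steps. With 2 reads counted per fragment and an equal level in all libraries, the counting error (standard error) of a base mean was 0.501% for *Mga* and 2.5% for *E2f6*, and between these values for the other 7 genes. Spread between replicates is not included in it, so each interval given here covers counting error only, and the true uncertainty of every level is larger. The ES cell identity was checked on markers: 9 of 9 ES cell markers found lay above the upper quartile of levels per kb of transcript, against 0 of 8 fibroblast, 0 of 6 primitive endoderm, 0 of 6 trophoblast and 0 of 6 neural markers. Per kb of gene span the ES cell markers were again 9 of 9, against 0 of 8 fibroblast, 0 of 6 primitive endoderm, 1 of 6 trophoblast (*Tfap2c*) and 2 of 6 neural markers (*Nes* and *Tubb3*), and the neural median lay at percentile 66.1.

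Because long genes collect more reads, levels of different genes were compared per kb, on both of the lengths that nuclear RNA leaves possible. One is the transcript (exons only), and the other is the gene span, introns included. Whether reads in introns were counted is not given in the sources used here. The scale matters for these genes, since exons make up between 6.33% of the span (*Tfdp1*) and 18.4% (*Mga*). Per kb of transcript the 9 genes spanned an 11.2-fold range, from 230.4 for *E2f6* to 2581 for *Tfdp1*, with a median of 938 against 118.8 for all entries above 0. Per kb of gene span the range was 5.36-fold, from 35.3 for *E2f6* to 189 for *Mga*, with a median of 82.3 against 14.1. All 9 genes exceeded the median of all entries, and 8 of 9 the upper quartile, on either scale.

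*Pcgf6* encodes the subunit that gives the complex its identity. The gene occupies bases 47033617 to 47050904 of chromosome 19 (mm10, the build of all positions here) and is read from the minus strand. Its level was 659 per kb of transcript (95% counting interval of its difference from *L3mbtl2*, the gene next above it, 4.17 to 59.2) and 82.3 per kb of gene span. *Pcgf6* was second of the 6 PCGF genes on both scales, behind *Pcgf5* per kb of transcript (744) and behind *Pcgf2* per kb of gene span (140). It exceeded *Pcgf1*, the PCGF gene of PRC1.1, 5.40-fold per kb of transcript (counting interval 4.81 to 6.07) and 1.92-fold per kb of gene span (1.71 to 2.15). *Bmi1*, which encodes PCGF4 of canonical PRC1, had the lowest level of the family, 24.3 per kb of transcript and 9.10 per kb of gene span. *Pcgf6* was 27.1-fold and 9.04-fold higher than *Bmi1* on these scales.

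*L3mbtl2* encodes an MBT domain protein that helps to hold the complex on chromatin. It lies on the plus strand of chromosome 15 from 81663934 to 81688305, with a base mean of 1781. Its level of 691 per kb of transcript was 9.96-fold that of *L3mbtl1* (counting interval 9.12 to 10.9) and 6.55-fold that of *L3mbtl3* (6.13 to 7.00). *L3mbtl4* was lower still, at 10.7 per kb of transcript. *L3mbtl2* was thus the highest of the 4 L3MBTL genes, and per kb of gene span it was 12.0-fold above *L3mbtl1* and 20.3-fold above *L3mbtl3*. Other MBT domain genes were higher on the transcript scale, namely *Mbtd1* (1347) and *Scmh1* (1038). Per kb of gene span *Mbtd1* (116) was again higher than *L3mbtl2* (73.1), and *Scmh1* (32.3) was lower. The gene *Chadl* runs on the opposite strand across 41.1% of the *L3mbtl2* span, and 14.8% of the 40-base stretches of the *L3mbtl2* transcript occur in *Chadl* transcripts. *Chadl* has a base mean of 59.2, and whether strand was used in the counting is not given in the sources used here.

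*Mga* and *Max* encode the basic helix-loop-helix pair that binds E-boxes, MGA having in addition a T-box DNA-binding domain. *Mga* lies on the plus strand of chromosome 2 from 119897228 to 119969581, with 23 exons and a transcript of 13304 bases, and *Max* (chromosome 12, 76937274 to 76962201) is read from the minus strand, with 4 exons and a transcript of 1926 bases. Their base means, 13689 and 1990.1, are far apart, but per kb of transcript their levels were 1029 and 1033, a difference within counting error (*Max* minus *Mga*, 4.40, interval -24.1 to 32.9). On the gene span the levels separated again, at 189 for *Mga* and 79.8 for *Max*, a ratio of 2.37 (2.31 to 2.44). An annotated segment on the same strand, *Gm47218*, overlaps 5.29% of the *Max* span.

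MAX is shared with MYC, MXD and MNT proteins, so the other genes of the MAX network, the MLX branch included, were examined as well. Per kb of transcript *Max* and *Mga* were the highest of the 13 genes of the network. *Mycn*, which encodes the MYC family member N-MYC, came next at 535, so that *Mga* was 1.93-fold higher (1.86 to 1.99). *Mxi1* (463) and *Mlx* (294) followed, and the lowest were *Mxd4* (14.0), *Mxd1* (52.6) and *Mlxipl* (60.9). Per kb of gene span *Mycn*, a gene of 5.82 kb, was the highest of the network at 246, and *Mga* was at 0.771 of its level (0.746 to 0.796). The order of *Mga* and *Mycn* therefore depends on the length used.

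*E2f6* and *Tfdp1* encode the other DNA-binding pair, E2F6 being an E2F that lacks the transactivation domain of the activating family members. *E2f6* lies on the plus strand of chromosome 12 from 16810977 to 16826752, and *Tfdp1* on the plus strand of chromosome 8 from 13338751 to 13378448. *E2f6* was the lowest and *Tfdp1* among the 2 highest of the 9 genes on both scales, and *Tfdp1* exceeded *E2f6* 11.2-fold per kb of transcript (10.7 to 11.8) and 4.62-fold per kb of gene span (4.40 to 4.86). DP proteins also pair with several other E2F proteins, though not with all of them. Within the family of 10 E2F and DP genes, per kb of transcript, only *E2f2* (124) was lower than *E2f6* (230.4). *E2f8* (250.2), *E2f1* (259) and *E2f7* (274) were slightly higher, and *E2f3* reached 1348. Per kb of gene span *E2f6* (35.3) and *E2f7* (35.7) were nearly level, and *Tfdp2*, the second DP gene, was lower than *E2f6* at 31.8. *Tfdp1* exceeded *Tfdp2* 4.68-fold per kb of transcript and 5.13-fold per kb of gene span. *Tfdp1* was the highest of the family per kb of transcript, but per kb of gene span *E2f4* (194) was above it (163). Of the 40-base stretches of the *Tfdp1* transcript, 30.4% also occur in the annotated gene *Gm7390*, and how reads that match both were treated is not given in the sources used here.

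*Hdac1*, *Hdac2* and *Wdr5* encode subunits that PRC1.6 shares with other chromatin complexes. HDAC1 and HDAC2 are class I histone deacetylases, and WDR5 is a WD40 repeat protein best known from MLL and SET1 histone methyltransferases. *Hdac1* (chromosome 4, minus strand, 129516104 to 129542713) was higher than *Hdac2* (chromosome 10, plus strand, 36974544 to 37001889) by 1.31-fold per kb of transcript (1.26 to 1.36) and 1.37-fold per kb of gene span (1.32 to 1.42). These genes are alike in structure, each with 14 exons and with spans of 26.6 and 27.3 kb, so the scale hardly alters their ratio. *Hdac1* was the highest of the 4 class I genes on either scale. *Hdac3* was lower, at 426 per kb of transcript, and *Hdac8*, which spans 220.7 kb, moved from 737 per kb of transcript to 6.47 per kb of gene span. The *Hdac1* level has a limit of its own: 60.9% of the 40-base stretches of its transcript occur in other annotated genes, most of them in *Gm10093* (58.6%), whereas 0% of those of *Hdac2* do.

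*Wdr5* (chromosome 2, plus strand, 27515157 to 27536535) had a level of 883 per kb of transcript and 119 per kb of gene span. Its single-exon paralog *Wdr5b* was at 23.9 on both scales, so that *Wdr5* was 37.0-fold and 5.00-fold higher. Of its partners in the methyltransferase core, *Ash2l* was the highest (3787 per kb of transcript), *Dpy30* was at 1767, and *Rbbp5* (948) lay near *Wdr5*. Per kb of gene span *Ash2l* was again the highest (287), but *Rbbp5* (98.4) and *Dpy30* (73.3) lay below *Wdr5*. No stretch of 40 bases was shared with another gene by the transcripts of *Wdr5*, *Pcgf6* or *E2f6*.

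**Figure D2:**
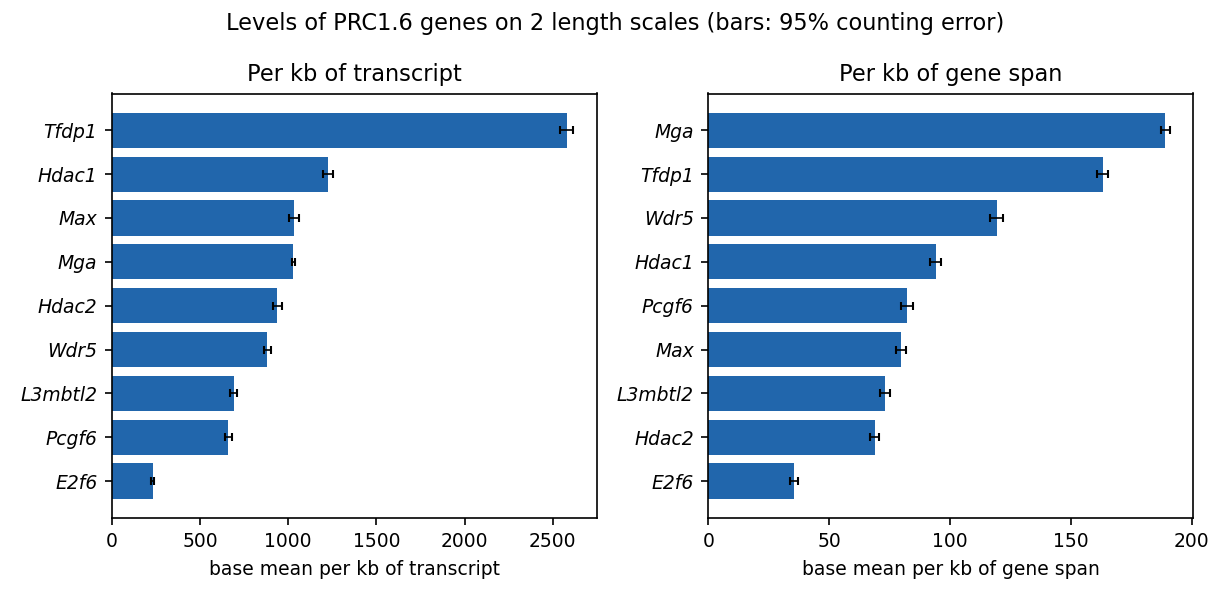
Base mean per kb of transcript (left) and per kb of gene span (right) for the 9 PRC1.6 genes, ordered by level; bars start at 0 and black whiskers are 95% counting intervals, without spread between replicates. *E2f6* is lowest in both panels, while *Mga* moves from 1029, level with *Max*, to the first place at 189.

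Set in order per kb of transcript, the levels fell from *Tfdp1* to *Hdac1*, *Max*, *Mga*, *Hdac2*, *Wdr5*, *L3mbtl2*, *Pcgf6* and *E2f6*. The single pair of neighbours within counting error was *Max* and *Mga*. Per kb of gene span the order was *Mga*, *Tfdp1*, *Wdr5*, *Hdac1*, *Pcgf6*, *Max*, *L3mbtl2*, *Hdac2* and *E2f6*, and the pair within counting error was *Pcgf6* and *Max* (difference 2.48, interval -0.767 to 5.72). Differences between other neighbours were larger than the counting error, but no spread between replicates was available to set against them.

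**Figure D3:**
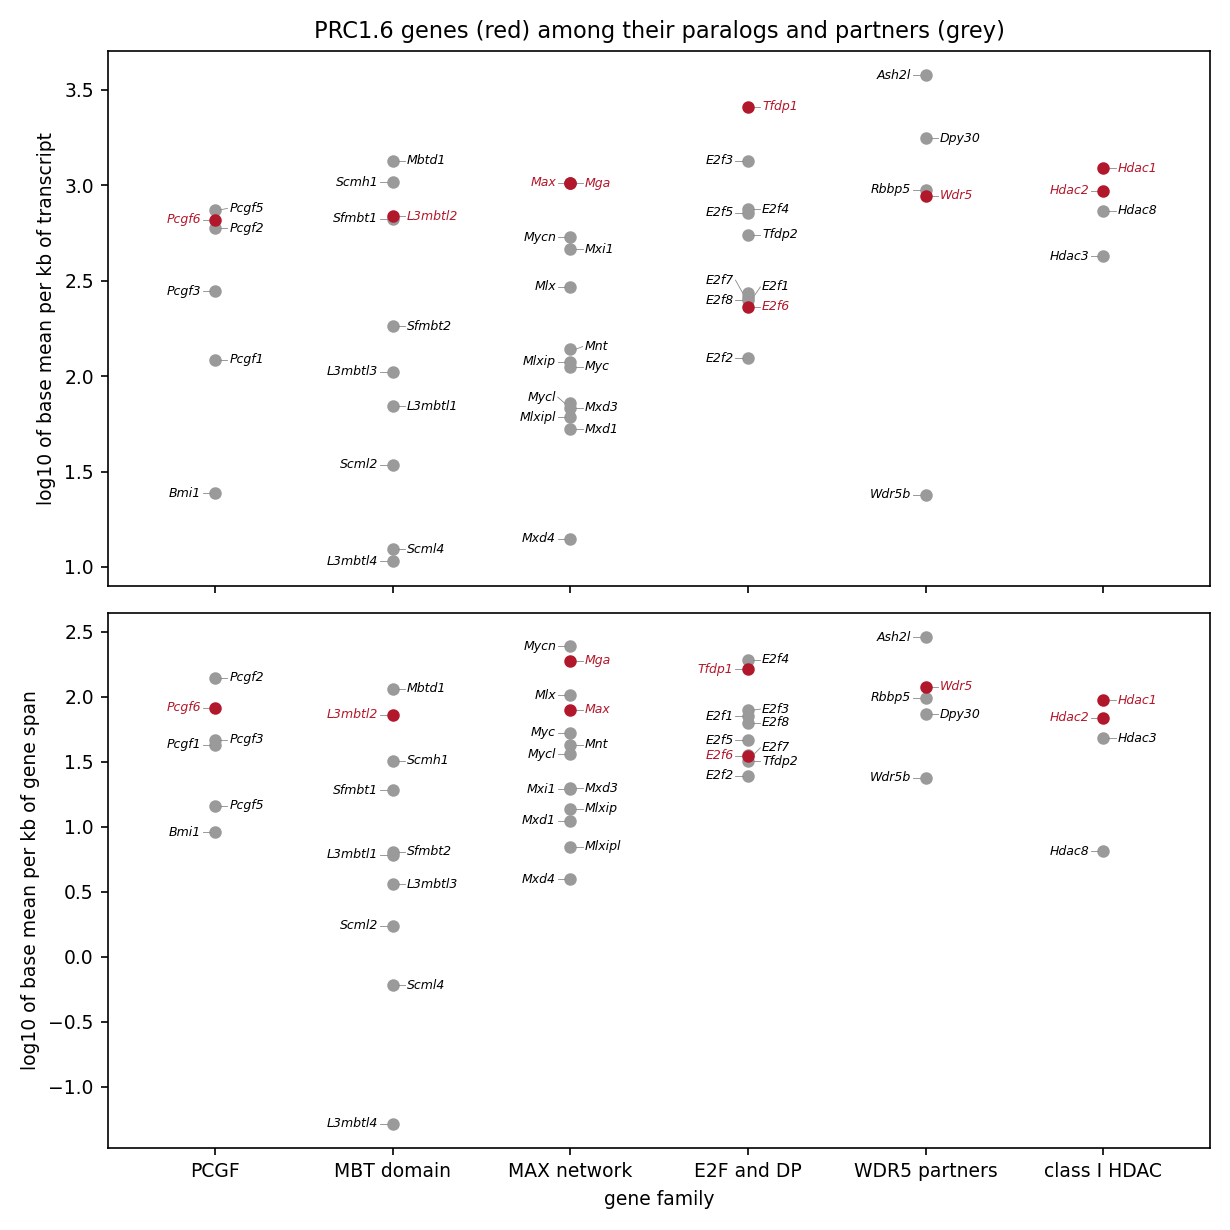
Levels of the PRC1.6 genes (red) and of their paralogs and partners (grey) in 6 gene families, as log10 of the base mean per kb of transcript (upper panel) and per kb of gene span (lower panel). PRC1.6 genes lead 3 of the families in the upper panel (*Max* with *Mga* beside it, *Tfdp1*, *Hdac1*) and 1 in the lower panel (*Hdac1*).

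Further PRC1.6 subunits, among them those shared with other PRC1 forms, were set beside these genes. *Rnf2*, which encodes RING1B, had 789 per kb of transcript, within the range of the 9 genes, and *Ring1*, which encodes RING1A, had 93.4. The ratio of *Rnf2* to *Ring1* was 8.45 per kb of transcript (7.75 to 9.21) and 1.62 per kb of gene span (1.48 to 1.76). *Rybp*, the gene that OHT recombines, had 3105 per kb of transcript over the 6 libraries together, 4.71-fold above *Pcgf6*, whereas its paralog *Yaf2* had 1.93. As the base mean pools UNT and OHT, it cannot show the deletion of *Rybp* and does not check the treatment labels. Of the HP1 protein genes, *Cbx3* was at 928 per kb of transcript and *Cbx1* at 4165 (percentile 99.1), above each of the 9 genes, and *Cbx1* was 4.49-fold higher than *Cbx3* per kb of transcript (4.35 to 4.63) and 2.01-fold higher per kb of gene span (1.95 to 2.07).

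Without the further subunits, 8 of 9 PRC1.6 genes lay above the upper quartile of levels per kb of transcript, with a median at percentile 88.8. The corresponding numbers were 3 of 6 (percentile 68.6) for PRC1.1, 5 of 7 (84.2) for PRC1.3 and PRC1.5, and 5 of 11 (69.7) for canonical PRC1, in which *Cbx8* (1.28) and *Phc1* (1815) marked the extremes. The distance between these forms depended on the scale. By base mean the median of PRC1.6 lay at percentile 83.0, beside 82.1 for PRC1.1 (4 of 6 above the upper quartile), 84.0 for PRC1.3 and PRC1.5 (4 of 7) and 76.1 for canonical PRC1 (6 of 11). Per kb of gene span the percentiles were 84.1 for PRC1.6, 68.7 for PRC1.1 (2 of 6), 73.1 for PRC1.3 and PRC1.5 (3 of 7) and 63.6 for canonical PRC1 (3 of 11). The lists were chosen by function and are short, and the numbers describe them without a test. Several of the 9 genes are shared with other complexes, so the lists differ in make-up. The 7 further PRC1.6 subunits had 5 of 7 above the upper quartile per kb of transcript (median percentile 86.0), with *Yaf2* lowest at 1.93. Of the listed genes, 7 of 8 were found for PRC1.3 and PRC1.5 and 11 of 12 for canonical PRC1. A list of germline genes known as targets of PRC1.6 in ES cells was drawn from background knowledge. Binding of the complex was not measured here. For the 24 genes of this list, with UNT and OHT pooled, the median level was 155 per kb of transcript (percentile 54.5). Per kb of gene span it was 11.0 (percentile 46.2), and 2 of 24 genes lay above the upper quartile on the transcript scale. They ranged from *Slc25a31* (24.0), *Mei1* (33.2) and *Tex101* (33.5) to *Stra8* (422), *Tex11* (447) and *Dmc1* (921).

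**Figure D4:**
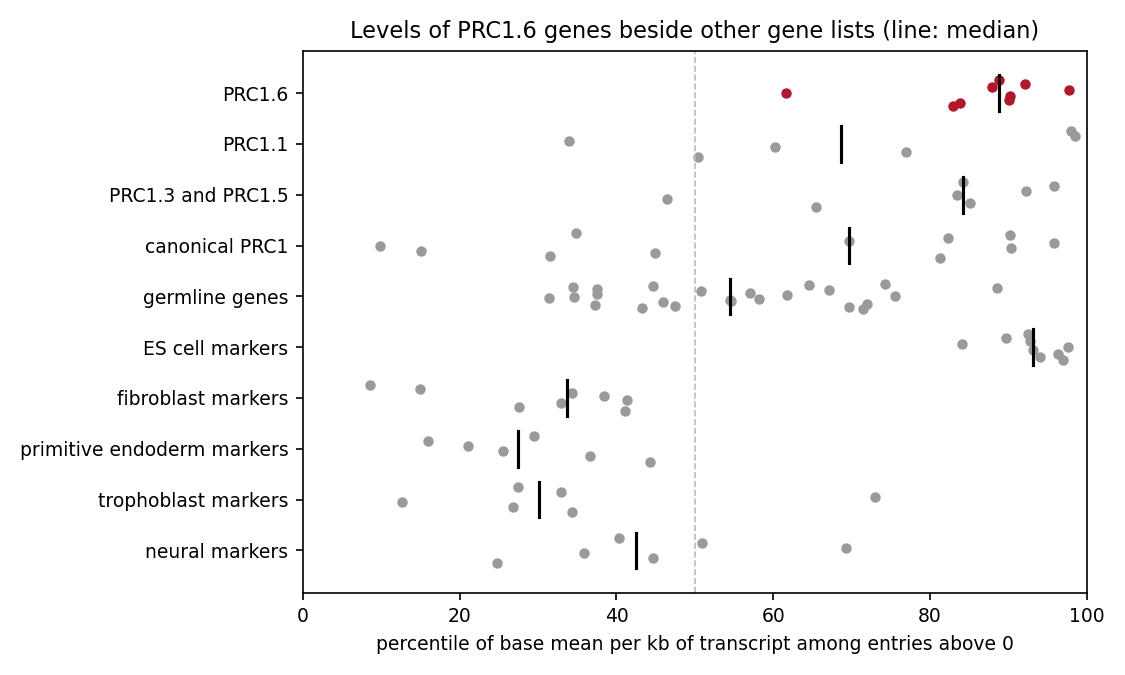
Percentile of the base mean per kb of transcript among entries above 0 (horizontal axis) for the genes of each list; each point is 1 gene and black lines are medians. PRC1.6 genes (red) have a median at percentile 88.8, beside 93.2 for ES cell markers and 54.5 for germline genes listed as targets of the complex.

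The promoters of these germline genes were searched for the letters that the DNA-binding subunits are known to read. In the 250 bases before the start, the E-box CACGTG (a palindrome, so both strands are covered by 1 search) was found in 12 of the 22 germline genes with a RefSeq window (54.5%), against 7.77% of 13981 windows of genes with a base mean above 0 and 6.02% of all 32851 windows. The E2F motif GCGGGAA, searched on both strands, was found in 5 of 22 (22.7%), against 6.17% and 3.82%, and the T-box motif GGTGTGA, searched likewise, in 2 of 22 (9.09%), against 3.03% and 3.33%. No motif is contained in another. The list was written from knowledge of genes that the complex binds, so its share is a description of that list. Both an E-box and an E2F match were found in 3 of 22 genes, *Ddx4*, *Hormad1* and *Sycp3*. For *Ddx4* the RefSeq start lies 165 bases from that of the transcript used for its level, and its matches lie inside that transcript. *Hormad1* and *Sycp3* are shown as examples of windows with matches to both motifs, from 10 bases before the first match to 10 bases after the last, with the matches in capitals (RefSeq, GRCm38.p6, sense strand).
Hormad1, chr3:95559572-95559672, plus strand: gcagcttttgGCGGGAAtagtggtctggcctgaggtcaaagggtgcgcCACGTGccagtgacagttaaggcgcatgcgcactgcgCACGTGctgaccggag
Sycp3, chr10:88459430-88459559, plus strand: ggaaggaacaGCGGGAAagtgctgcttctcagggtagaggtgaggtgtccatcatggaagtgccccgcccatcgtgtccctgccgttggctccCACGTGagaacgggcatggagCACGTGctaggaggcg
In each the E2F match lies farther from the start than the E-boxes, with 31 bases between the nearest pair in *Hormad1* and 76 in *Sycp3*. *Ddx4*, an RNA helicase gene of germ cells, had a level of 367 per kb of transcript, and *Hormad1* and *Sycp3*, which encode proteins of the meiotic chromosome axis, had 125 and 155.

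The promoters of the complex genes were searched in the same way. A window was matched for 8 of the 9 genes, all except *Hdac1*. An E-box was found in 1 of the 8 (*Tfdp1*, starting 231 bases before the start), and neither the E2F nor the T-box letters occur in these 8 windows. Over the 13981 windows the shares were 7.77% (E-box), 6.17% (E2F) and 3.03% (T-box), so 8 windows are too few to show a lack of matches. The 8 windows hold 12 to 42 CpG dinucleotides in 250 bases, with a median of 20. The median was 13 over the 13981 windows and 19 over the 3495 windows above the upper quartile by base mean. The count exceeded 13 in 6 of 8. *Tfdp1*, the highest of the genes per kb of transcript, has the most (42, percentile 98.8), and *Wdr5* the fewest (12, percentile 45.4), while *E2f6*, the lowest gene, has 24 (percentile 82.0). CpG count and level thus do not run in the same order across these genes. The windows of these 3 genes are shown as the extremes of CpG content and of level, with each CpG in capitals (RefSeq, GRCm38.p6, sense strand).
Tfdp1, chr8:13338501-13338750, plus strand: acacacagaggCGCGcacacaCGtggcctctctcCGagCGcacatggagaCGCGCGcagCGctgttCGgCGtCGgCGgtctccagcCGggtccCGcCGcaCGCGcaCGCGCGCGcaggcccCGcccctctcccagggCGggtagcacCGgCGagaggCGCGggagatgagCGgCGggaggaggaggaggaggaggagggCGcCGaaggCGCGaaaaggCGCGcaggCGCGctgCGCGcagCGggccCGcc
E2f6, chr12:16810715-16810964, plus strand: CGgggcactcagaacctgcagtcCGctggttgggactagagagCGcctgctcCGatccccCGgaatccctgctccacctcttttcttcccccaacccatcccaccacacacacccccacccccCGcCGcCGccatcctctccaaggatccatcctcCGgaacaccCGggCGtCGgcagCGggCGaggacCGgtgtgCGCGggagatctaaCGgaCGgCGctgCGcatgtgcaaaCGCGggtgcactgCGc
Wdr5, chr2:27514897-27515146, plus strand: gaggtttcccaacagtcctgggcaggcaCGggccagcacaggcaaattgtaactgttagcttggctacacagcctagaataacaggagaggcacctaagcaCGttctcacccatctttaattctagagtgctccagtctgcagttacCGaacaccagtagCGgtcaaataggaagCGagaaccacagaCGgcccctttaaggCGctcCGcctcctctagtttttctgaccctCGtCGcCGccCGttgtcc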

How the data were processed

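The members and the gene lists were chosen with earlier results of these data known. Nuclear RNA was sequenced from 6 libraries, 3 UNT and 3 OHT. The authors discarded fragments matching rRNA (Bowtie2), mapped reads to mm10 by STAR, and passed those left unmapped to Bowtie2 so as to keep intronic RNA. A script of their own counted reads on a non-redundant refGene set, filtered for size, mappability and unique ends, and the authors ran DESeq2 on the counts; versions are not given in the sources used here. The base mean is a signal deposited by the authors, the read count divided by a library's size factor and averaged over all libraries. The remaining columns hold the authors' own comparison of OHT with UNT (fold change, its standard error, test statistic, p-values and a threshold flag) and were not used. Because the table holds no counts per library, the count test and the tests between groups in the design were not run, and 0 columns of per-sample values were left unmatched.

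Gene symbols came from the RefSeq table of GRCm38.p6 for 20450 of 20633 entries, and from GENCODE vM21 for others, giving 20560. GENCODE vM21 transcripts, whose coordinates are those of mm10, gave lengths for 98.2% of entries. Where a symbol had several entries, the highest base mean was kept. Percentiles are among the 19198 entries above 0. Counting intervals are at 95%, from the size factors recovered and 2 reads per fragment. Stretches of 40 bases, the read length, were searched on both strands of all GENCODE transcripts. The steps were tested on simulated data. Genes named are the 9 members and genes of the lists (for lists over 10 genes, the 3 highest and 3 lowest); *Chadl*, *Gm47218*, *Gm7390*, *Gm10093*, *Ddx4*, *Hormad1* and *Sycp3* were named after their overlap or motif matches were seen. Python 3.11.15, numpy 2.4.6, pandas 2.3.3 and scipy 1.17.1 were used.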

Additional observations from a re-analysis of the deposited data

How the results depend on the processing

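No paired analysis was possible because each gene has a single value pooled over libraries. The replicate block, the count tests, their filter and leaving out each replicate could likewise not be run, and the stability of any level between replicates is unknown. All 9 PRC1.6 genes stayed above the median of the entries under each of the 6 alternatives (all entries, 1 entry per gene, a base mean of at least 10, per kb of transcript, per kb of gene span, and the lowest entry of each symbol, which is the same entry for these genes). PRC1.6 genes led 3 of the 6 families by base mean and per kb of transcript, and 1 per kb of gene span. Of 54 percentiles of single genes under these alternatives, 21 stayed within the 95% binomial interval of the reported percentile, 20 rose and 13 fell. Those under the lowest entry of each symbol are among the 21 and could not move, since the entry is the same. Those under 1 entry per gene are all among the 21 as well, and most reference entries are shared there. The interval treats the entries as a sample and does not measure the uncertainty of a gene's level. The largest shifts were those of *E2f6*, up by 7.30 per kb of gene span and down to percentile 50.7 with a base mean of at least 10. The size factors did not change with a 10 times wider tolerance (2.23-fold). Sequence shared with other genes limits the levels of *Hdac1* and *Tfdp1*. For *L3mbtl2* the shared stretches occur in *Chadl*, which overlaps it on the opposite strand, so they limit its level only if strand was not used in the counting.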
